A study of Fragaria x ananassa with 3 samples.

Results

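The new candidate miRNAs of 22 nt were 56 of the 1310 mature miRNA names, and of the 1225 names of new candidates, counted in the small RNA libraries of stored strawberry fruit. They were chosen by class and length alone: the name had to be listed by the authors as a new candidate, with no match to a known plant miRNA as the authors classed it, and its sequence had to have 22 bases. This gave 58 names, of which 2 (PC-5p-481_6402 and PC-5p-10254_350) were left out by the rule. All 56 sequences were distinct. For comparison the same list held 168 new candidates of 21 nt, 121 of 23 nt, 862 of 24 nt and 85 known miRNAs.

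In plants a Dicer-like enzyme cuts a short duplex out of a hairpin precursor, and each strand of the duplex can be sequenced as a 5p or a 3p arm with short overhangs at the 3′ ends. Most plant miRNAs are cut to equal arms, and an unpaired base in the stem can make an arm longer. In Arabidopsis, arms of 22 nt are known for setting off the production of secondary small interfering RNAs from the transcripts they cleave, and a 5′ uridine is known to favour loading into ARGONAUTE1.

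The fruits were of the cultivated strawberry Fragaria x ananassa cv. Zhangji. They were picked at commercial maturity and kept in plastic bags at 20 °C and about 85% relative humidity. A library of small RNAs was sequenced from fruit after 24 h of storage and another from fruit at 0 h, the starting point. A degradome library, which captures the 5′ ends of cleaved mRNAs, was made from a mixture of fruit of both times. There was 1 library of each kind, so storage time cannot be told apart from fruit or library, and no test across samples was possible. How many fruits went into each library is not stated in the sources read. The intervals below are exact 95% counting intervals and cover counting error alone, so that differences between fruits lie outside them.

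The listed miRNAs together had 2998588 raw reads at 24 h against 3006293 at 0 h. Raw reads are the authors' counts, and a fold is the ratio of the authors' normalized reads, 24 h over 0 h. Normalization multiplied raw reads by 0.846 at 24 h and by 0.917 at 0 h, so equal raw reads give a fold a little under 1. Across all miRNAs compared the median log2 fold was 0.

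The sequences of the 10 candidates with most reads at 0 h carry most of the results and are shown first, from 5′ to 3′ as the authors listed them, with the seed (bases 2 to 8) in capitals.
PC-3p-132_23619: tCTATTCAaagagatgactgtt
PC-3p-82_35024: cAGGTTGTgaaggtactagcat
PC-5p-1433_2156: tTACCTGTagaagcgggagtgc
PC-5p-2222_1443: aTGCTAGTatcttcacaacctg
PC-3p-1795_1758: tCCCTATTccacctattcccca
PC-3p-2161_1479: cTCTCTCTcgaaaggacctcgg
PC-3p-1812_1740: tCTTTCCTagtcctgccattcc
PC-5p-2988_1087: tTCGTTCGgattccaattcaaa
PC-3p-4861_719: aTACTTTAgccgacgacattat
PC-3p-5291_667: cAAGTCTGgccaatacttgctc
The seeds differed in all 10. Over the 56 candidates there were 55 distinct seeds, and the only shared seed was that of PC-3p-122791_29 and PC-3p-13241_273, whose sequences differed at 2 of 22 bases. PC-3p-12607_286 had the seed of the known osa-miR156h-3p_2ss9CT14T-, and PC-5p-242686_15 had that of mdm-miR477_1ss14AG, from which it differed at 3 of 21 aligned bases.

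The reads were unevenly spread over the 56 candidates. PC-3p-132_23619 had 24715 raw reads at 24 h against 14006 at 0 h. PC-3p-82_35024 had 12665 raw reads at 24 h against 9563 at 0 h. These 2 names held 79.1% of the raw reads of the 56 candidates at 24 h and 73.5% at 0 h, so any sum over the candidates mostly describes them. The median candidate had 37 raw reads at 24 h against 29.5 at 0 h, and the lowest value in a library was 5. No candidate was at 0 in either library. At least 100 raw reads in a library were reached by 17 candidates of 22 nt (30.4%), against 42 of 21 nt (25.0%), 6 of 23 nt (4.96%) and 95 of 24 nt (11.0%). The other 39 candidates of 22 nt had at most 89 raw reads in a library.

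Summed over the 56 candidates there were 47253 raw reads at 24 h against 32063 at 0 h. This was 1.58% of the raw reads of all listed miRNAs at 24 h, against 1.07% at 0 h. The fold of the sums was 1.36 (95% counting interval 1.34 to 1.38). Without PC-3p-132_23619 the fold of the sums was 1.15 (1.13 to 1.18), and without PC-3p-82_35024 as well it was 1.07 (1.04 to 1.10). The summed fold of the candidates of 21 nt was 1.21, that of 23 nt 0.945, that of 24 nt 1.02 and that of the known miRNAs 0.873.

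**Figure D1:**
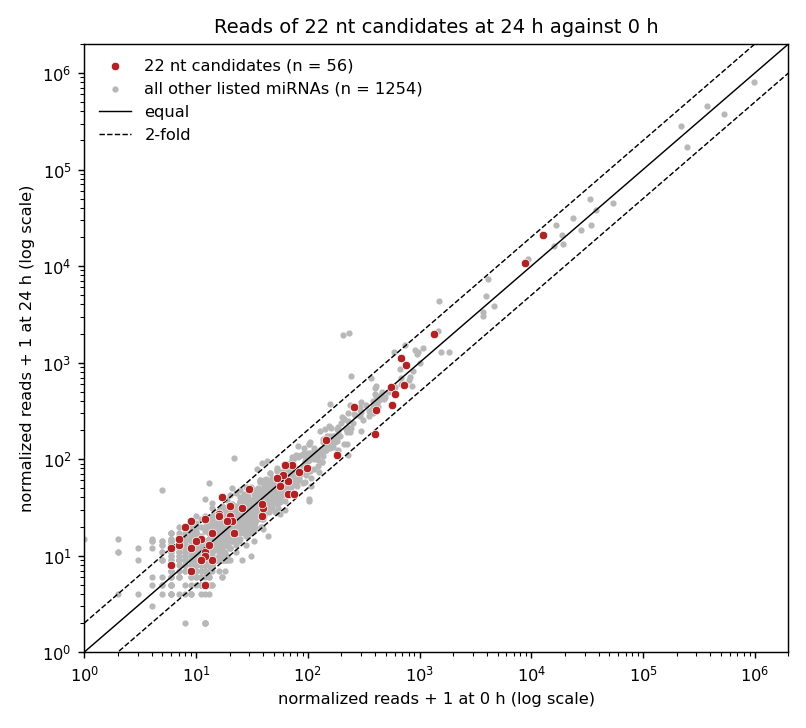
Normalized reads plus 1 at 24 h (vertical) against 0 h (horizontal), both on log scales, for the 56 candidates of 22 nt (red) and the other 1254 listed miRNAs (grey), with lines for equality and for 2-fold differences. The 2 most abundant candidates lie above the line of equality, and the red points beyond the 2-fold lines are mostly at low reads.

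Between the storage times, 54 of the 56 candidates reached 10 raw reads in 1 of the libraries or both and were compared. PC-5p-977833_4 and PC-5p-242686_15 had fewer. A log2 fold above 1 was seen in 6 of 54 (11.1%), against 6.25% of all listed miRNAs that were compared. A log2 fold below -1 was seen in 2 of 54 (3.70%), against 3.69% of all listed miRNAs. Both shares rest on few names, and with 1 library a time they describe these libraries only. The median log2 fold of the 54 was 0.22, with 31 above equality, 22 below and 1 equal, and over all 1248 listed miRNAs compared it was 0, with 590 above and 604 below. Among the candidates of 21 nt the share beyond 2-fold was 19.1% higher and 1.85% lower at 24 h.

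The 6 candidates that were more than 2-fold higher at 24 h were all low in reads, with 13 to 46 raw reads at 24 h against 6 to 18 at 0 h.
PC-5p-58298_61: tGAACGTCcgcagctgagaagc
PC-5p-138174_26: tTAGCCGAcgacattattgcgt
PC-5p-61232_58: aCGTTAGGgtattcgtcggcta
PC-3p-155215_23: cGAAAAACtggaatttggcggc
PC-3p-105741_34: tTACCGATtcctcccaatccaa
PC-5p-397294_9: gAAATATAaaatatttcgtcgg
PC-5p-58298_61 had 46 raw reads at 24 h against 18 at 0 h, a fold of 2.44 (1.34 to 4.32). PC-5p-138174_26 had 26 raw reads at 24 h against 9 at 0 h, a fold of 2.75 (1.21 to 6.47). PC-5p-61232_58 had 23 raw reads at 24 h against 8 at 0 h, a fold of 2.71 (1.15 to 6.86). In these 3 the counting interval lay above 1 but reached below 2. PC-3p-155215_23 had 27 raw reads at 24 h against 12 at 0 h, with an interval that only just left out 1 (fold 2.09, 1.02 to 4.50). PC-3p-105741_34, with 17 raw reads at 24 h against 7 at 0 h, and PC-5p-397294_9, with 13 at 24 h against 6 at 0 h, had folds of 2.33 and 2.20 in this order and intervals that held 1. PC-3p-212275_17, with 15 raw reads at 24 h against 7 at 0 h, had a fold of exactly 2.00 and stood just inside the threshold.

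The 2 candidates more than 2-fold lower at 24 h differed in depth.
PC-3p-2227_1439: tGCTCACTcttcttctgtcagc
PC-3p-122791_29: tGACTATAgccgacgaaataat
PC-3p-2227_1439 had 214 raw reads at 24 h against 432 at 0 h, a fold of 0.457 (0.386 to 0.540). It was the only candidate beyond 2-fold in either direction that reached 50 raw reads in a library. PC-3p-122791_29 had 5 raw reads at 24 h against 12 at 0 h, and its interval held 1 (fold 0.364, 0.106 to 1.17). No counting interval of the 54 lay wholly beyond 2-fold.

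Among the 17 candidates with at least 100 raw reads, the counting interval of the fold lay above 1 in 7, below 1 in 6 and held 1 in 4. Of all 212 listed miRNAs of that depth, the interval lay above 1 in 27.4% and below 1 in 24.1%, so an interval that leaves out 1 was common in these libraries. PC-3p-2161_1479 had 1322 raw reads at 24 h against 741 at 0 h, a fold of 1.65 (1.50 to 1.80), and PC-3p-132_23619 had a fold of 1.63 (1.60 to 1.66). PC-5p-1433_2156 had 2318 raw reads at 24 h against 1463 at 0 h, a fold of 1.46 (1.37 to 1.56). These 3 were the highest folds of this group. PC-3p-15817_229 had 102 raw reads at 24 h against 68 at 0 h (1.39, 1.01 to 1.91), and PC-3p-8714_412 had 408 at 24 h against 282 at 0 h (1.34, 1.14 to 1.56). PC-5p-2222_1443 had 1111 raw reads at 24 h against 817 at 0 h (1.26, 1.15 to 1.38), and PC-3p-82_35024 had a fold of 1.22 (1.19 to 1.26).

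On the lower side, after PC-3p-2227_1439, PC-3p-12607_286 had 128 raw reads at 24 h against 197 at 0 h, a fold of 0.600 (0.476 to 0.753). PC-5p-2988_1087 had 433 raw reads at 24 h against 613 at 0 h, a fold of 0.651 (0.575 to 0.739). PC-3p-1812_1740 had 551 raw reads at 24 h against 664 at 0 h, a fold of 0.766 (0.683 to 0.859). These 3 folds were within 2-fold, with intervals wholly below 1. PC-3p-1795_1758 had 686 raw reads at 24 h against 797 at 0 h (0.793, 0.716 to 0.881), and PC-3p-5291_667 had 381 at 24 h against 441 at 0 h (0.797, 0.694 to 0.917). The intervals held 1 for PC-3p-4861_719 (659 raw reads at 24 h against 606 at 0 h), PC-3p-40198_89 (186 at 24 h against 159 at 0 h), PC-5p-24529_147 (94 at 24 h against 106 at 0 h) and PC-3p-56208_64 (101 at 24 h against 77 at 0 h).

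**Figure D2:**
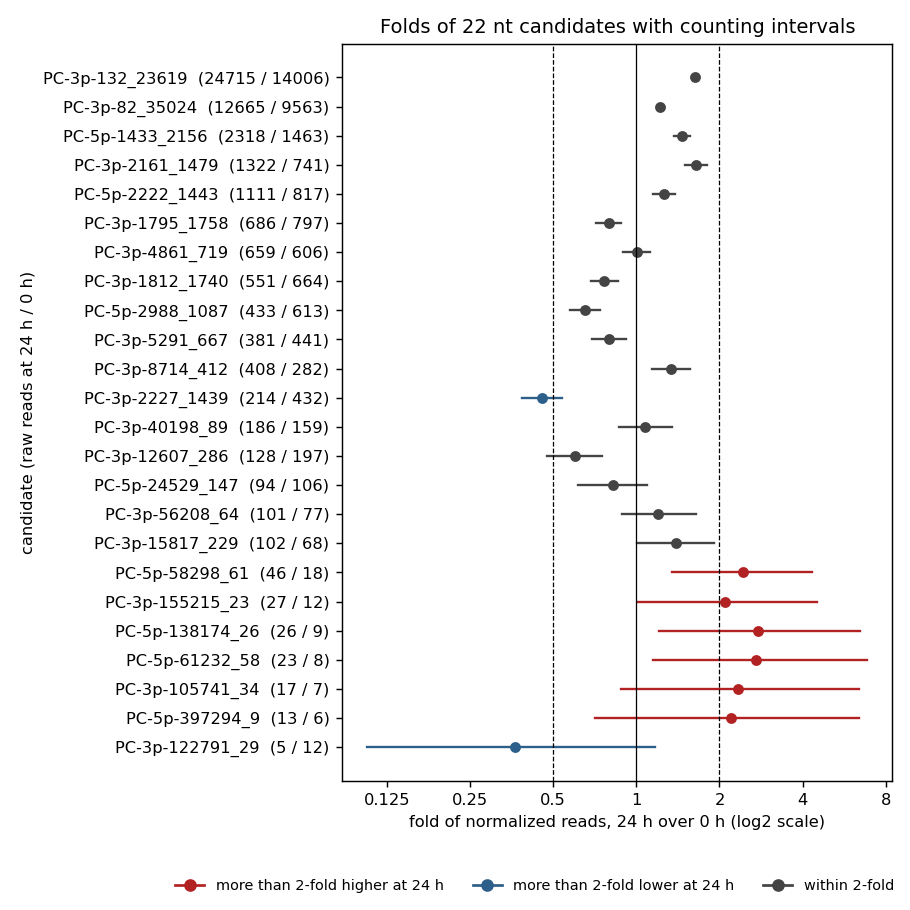
Fold of normalized reads, 24 h over 0 h, on a log2 scale with exact 95% counting intervals, for the candidates that reached 100 raw reads in a library or beyond 2-fold, ordered by their raw reads (24 h / 0 h, given beside each name). Dashed lines mark 2-fold. The candidates that reached 100 raw reads have intervals within 2-fold or, for PC-3p-2227_1439 and PC-3p-12607_286, across the lower line, and the 6 higher candidates have intervals that reach below 2.

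By first base, 29 of the 56 candidates (51.8%, Clopper-Pearson interval 38.0 to 65.3) began with uridine (T in the listed sequences), 15 with A, 10 with C and 2 with G. Uridine was first in 51.8% of the candidates of 21 nt, 44.6% of those of 23 nt, 20.4% (17.8 to 23.3) of those of 24 nt and 50.6% of the known miRNAs. The interval of the 22 nt candidates lay above that of the 24 nt candidates and held the shares of the other classes. The 24 nt candidates mostly began with A (59.9%), against 26.8% (15.8 to 40.3) of the 22 nt candidates. By reads, the sequences that began with uridine held 63.7% of the raw reads of the 22 nt candidates at 24 h and 59.2% at 0 h. Those that began with C held 31.5% at 24 h and 34.7% at 0 h, mostly PC-3p-82_35024. Names that share sequence are not independent, so these shares carry no test.

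**Figure D3:**
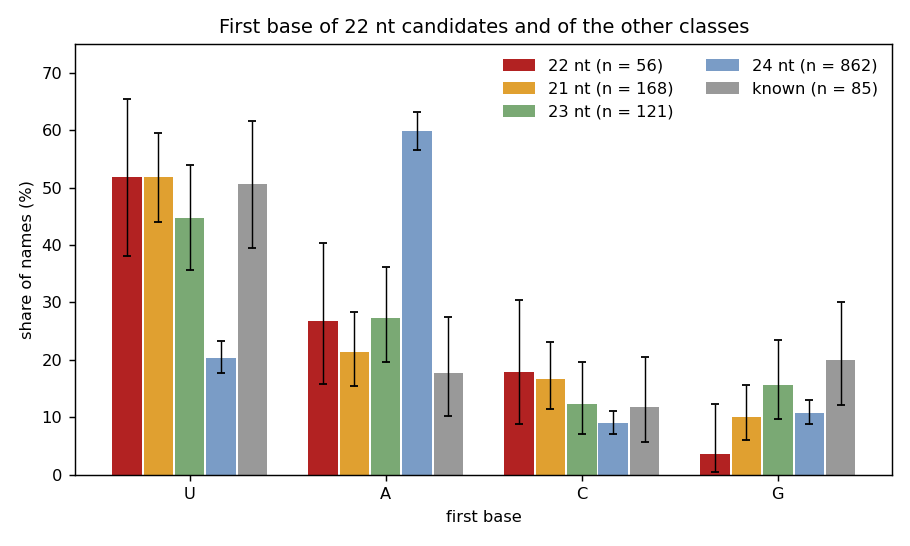
Share of names (vertical, in %) by first base (horizontal) for candidates of 22, 21, 23 and 24 nt and for known miRNAs, with exact 95% Clopper-Pearson intervals. The 22 nt bars stand near those of the 21 nt and known miRNAs for U, and the 24 nt bar stands apart for U (20.4%) and A (59.9%).

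By the arm in their names, 30 candidates were 3p and 26 were 5p. The 3p candidates had 42714 raw reads at 24 h against 28621 at 0 h, and the 5p candidates had 4539 at 24 h against 3442 at 0 h. The 3p sum includes the 24715 raw reads at 24 h and 14006 at 0 h of PC-3p-132_23619. That candidate lay on the 5′ side of its predicted stem, as described below, so the sums follow the names and not the side of the stem. Uridine came first in 14 of the 30 named 3p and in 15 of the 26 named 5p. The GC content had a median of 40.9%, with a range of 27.3 to 68.2%. The median of the 21 nt candidates was 42.9%.

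Hairpin sequences on scaffolds of the Fragaria vesca genome 1.0 were at hand for 37 candidates, at 39 positions, and the other 19 were not analysed here for position. The listed hairpins had 78 to 264 nt, and folding them with RNAfold gave minimum free energies of -173.2 to -40.3 kcal/mol, with 18 to 22 bases of each candidate paired. The candidate matched the genome sequence without mismatch at 26 positions and with 1 mismatch at 13. At 35 positions the side of the stem in the fold was the arm in the name. At the other 4 it was not, for PC-3p-132_23619 and PC-3p-56208_64, which lay on the 5′ side, and for PC-5p-33850_107 and PC-5p-61232_58, which lay on the 3′ side.

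A second listed sequence of 21 nt on the same precursor was found for 12 of the 56 candidates, and for 5 more the second sequence had 23 nt (PC-5p-2222_1443) or 24 nt (PC-3p-4861_719, PC-3p-35078_103, PC-3p-67479_53 and PC-5p-397294_9). Together 17 of 56 (30.4%, 18.8 to 44.1) had a listed partner, against 30.4% of the candidates of 21 nt, 23.1% of 23 nt and 27.5% of 24 nt. In 8 of the 12 hairpins the 22 nt and 21 nt sequences lay on opposite sides with at least 10 base pairs between them. Only 3 of these 8 had 3′ overhangs of 2 nt at both ends in the predicted fold. In the other 4 of the 12 the sequences did not pair. PC-3p-132_23619 shared 5 bases with its listed partner PC-5p-486865_8 on the same side of the stem, PC-5p-24529_147 shared 7 bases with PC-3p-4052_846, PC-3p-56208_64 and PC-5p-30509_118 lay side by side, and PC-5p-1433_2156 and PC-3p-32264_112 lay far apart with no pair between them.

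**Figure D4:**
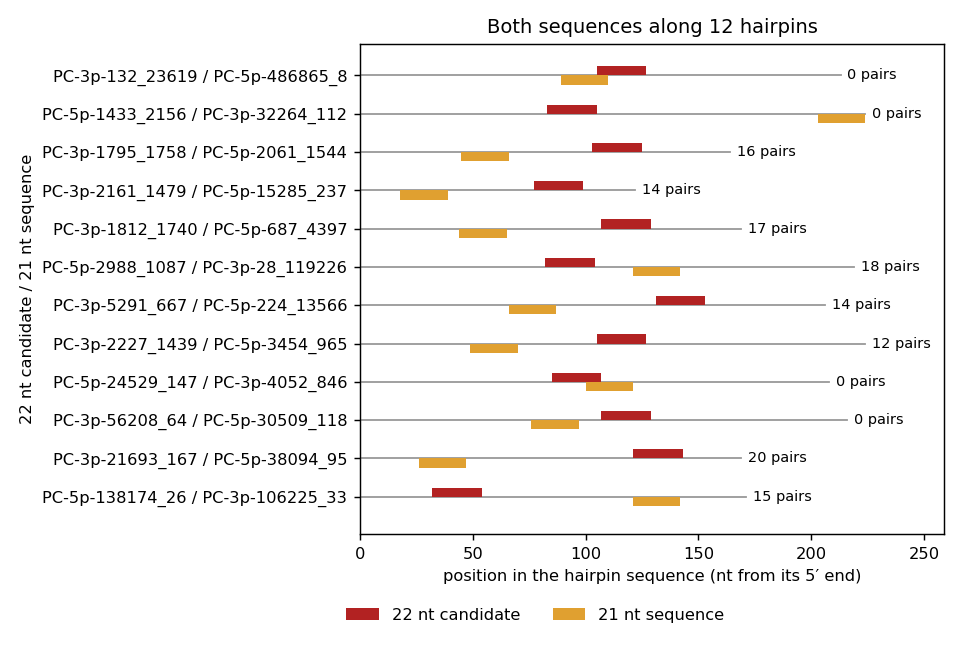
Positions of the 22 nt candidate (red) and the 21 nt sequence (yellow) along the 12 listed hairpins (grey line, horizontal axis in nt from the 5′ end), with the number of base pairs between them in the RNAfold structure. Between 12 and 20 pairs join the 2 sequences in 8 hairpins and 0 in the other 4.

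The 3 hairpins in which both arms ended with 3′ overhangs of 2 nt are shown with both sequences in capitals. The stretch marked for PC-3p-28_119226 differs from its listed sequence at 1 base, and the other marked stretches have no mismatch.
PC-5p-2061_1544 and PC-3p-1795_1758: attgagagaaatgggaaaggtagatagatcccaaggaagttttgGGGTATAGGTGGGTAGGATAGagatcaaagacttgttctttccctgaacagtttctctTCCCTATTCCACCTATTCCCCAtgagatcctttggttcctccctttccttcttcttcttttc
PC-5p-687_4397 and PC-3p-1812_1740: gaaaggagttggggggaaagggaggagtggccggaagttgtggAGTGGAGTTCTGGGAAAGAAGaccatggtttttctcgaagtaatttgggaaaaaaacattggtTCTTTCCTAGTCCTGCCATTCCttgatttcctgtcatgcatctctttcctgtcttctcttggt
PC-5p-2988_1087 and PC-3p-28_119226: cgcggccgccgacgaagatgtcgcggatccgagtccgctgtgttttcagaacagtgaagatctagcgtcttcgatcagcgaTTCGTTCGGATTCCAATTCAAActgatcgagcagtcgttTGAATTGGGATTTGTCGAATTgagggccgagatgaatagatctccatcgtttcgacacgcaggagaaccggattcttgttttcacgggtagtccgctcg
They lie in the windows scf0513158:452166-452427 (minus strand), scf0513061:421306-421566 (plus strand) and scf0513142:50254-50514 (plus strand). The windows extend past the hairpins as listed, and the annotation of genes there was not analysed here. The arms were joined by 16, 17 and 18 base pairs in that order of hairpins.

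In the hairpin of PC-3p-1795_1758 the arms stood on different sides of equality. The 22 nt arm had 686 raw reads at 24 h against 797 at 0 h (fold 0.793, 0.716 to 0.881), and the 21 nt arm PC-5p-2061_1544 had 1452 at 24 h against 1038 at 0 h (1.29, 1.19 to 1.40). The 22 nt arm held 32.1% (30.1 to 34.1) of the reads of both arms at 24 h, against 43.4% (41.2 to 45.7) at 0 h. The counting intervals of the share did not overlap. In the hairpin of PC-3p-1812_1740 the 21 nt arm PC-5p-687_4397 had 1537 raw reads at 24 h against 1696 at 0 h, with a fold of 0.837. The 22 nt arm held 26.4% (24.5 to 28.3) at 24 h and 28.1% (26.3 to 29.997) at 0 h, with intervals that overlapped. In the hairpin of PC-5p-2988_1087 the 21 nt arm PC-3p-28_119226 was far more abundant, with 20070 raw reads at 24 h against 20969 at 0 h. The 22 nt arm held 2.11% (1.92 to 2.32) of the reads of both arms at 24 h, against 2.84% (2.62 to 3.07) at 0 h. Since PC-3p-28_119226 had 1 mismatch to this hairpin, whether its reads came from here is not settled, and the share compares the listed names.

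In the other 5 paired hairpins the overhangs in the predicted fold were not 2 nt at both ends, with 6 nt for PC-3p-2161_1479, 7 nt for PC-3p-5291_667 and 9 nt for PC-3p-2227_1439 at either end. The 21 nt arm PC-5p-15285_237 of PC-3p-2161_1479 had 424 raw reads at 24 h against 261 at 0 h, a fold of 1.50 (1.28 to 1.76), and the 22 nt arm held 75.7% at 24 h and 74.0% at 0 h. Both arms of this hairpin were above equality. The 21 nt arm PC-5p-224_13566 of PC-3p-5291_667 had 4598 raw reads at 24 h against 5091 at 0 h, and the 22 nt arm held 7.65% at 24 h and 7.97% at 0 h. PC-3p-21693_167, with 50 raw reads at 24 h against 71 at 0 h, and its arm PC-5p-38094_95, with 34 at 24 h against 28 at 0 h, were too low to set their shares apart. PC-5p-138174_26 and its listed partner PC-3p-106225_33, with 19 raw reads at 24 h against 5 at 0 h, were both more than 2-fold higher at 24 h. The fold of the 21 nt sequence was 3.20 (1.27 to 12.02). Both had 1 mismatch to this hairpin. The hairpin repeats the stretch of the 22 nt sequence, so its place and its pairing with the partner are not settled.

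Over the 12 precursors the 22 nt sequence had more reads than its listed 21 nt partner in 6 at 24 h and in 7 at 0 h. This compares the 2 listed names only, and in 4 of the hairpins they did not pair. The hairpins of PC-3p-2227_1439, above its partner at 0 h only, also held the known mdm-miR156a_L+1, described below, with far more reads. The share intervals of the storage times were apart in 5 of the 12, against 5.17% of all 174 pairs of candidates on 1 precursor and 9.30% of the 86 pairs that reached 100 raw reads together. The 174 include the 12, and the 5 are among the 9 of the 174 with intervals apart. The 12 pairs were deeper, with a median of 1917 raw reads at 24 h and 1290.5 at 0 h, against 91 at 24 h and 91.5 at 0 h over the 174, and the part of depth in this difference was not tested. Among the 5, the 22 nt share was lower at 24 h in 3 (PC-3p-1795_1758, PC-5p-2988_1087 and PC-3p-2227_1439) and higher in 2 (PC-3p-132_23619 and PC-5p-1433_2156, whose listed partners did not pair with them). PC-5p-486865_8 had 5 raw reads at 24 h against 14 at 0 h beside PC-3p-132_23619. PC-3p-32264_112 had 62 raw reads at 24 h against 116 at 0 h beside PC-5p-1433_2156, which held 97.4% at 24 h and 92.7% at 0 h. Uridine was the first base of 9 of the 12 sequences of 22 nt and of 4 of the 12 of 21 nt.

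**Figure D5:**
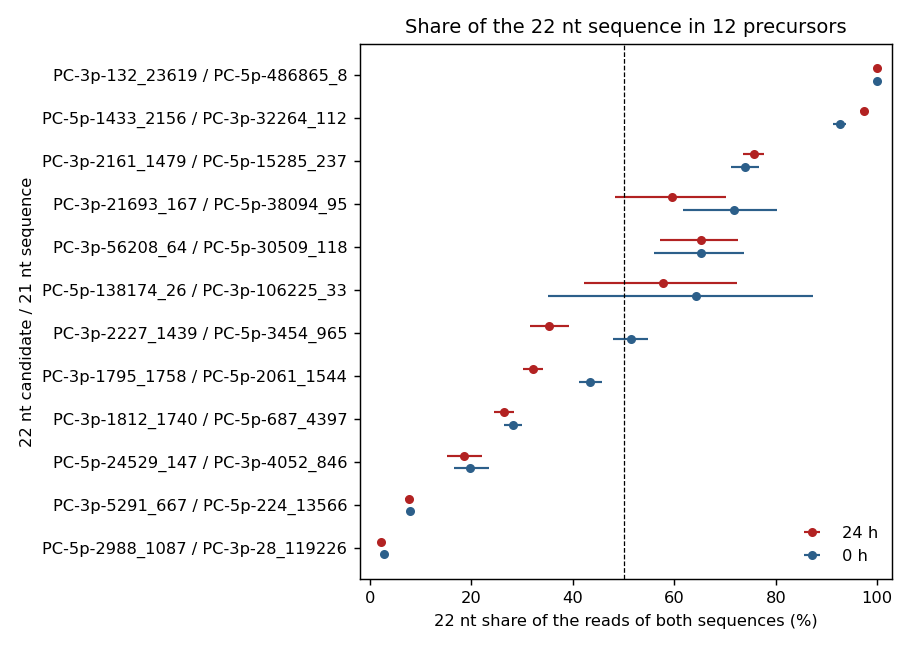
Share of the 22 nt candidate (horizontal, in %) in the raw reads of both listed sequences of 12 precursors, at 24 h (red) and 0 h (blue), with exact 95% Clopper-Pearson intervals and a line at 50%. PC-3p-2227_1439 and PC-3p-1795_1758 show the widest gaps between times among the pairs with narrow intervals, with 35.3% and 32.1% at 24 h against 51.4% and 43.4% at 0 h.

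PC-3p-2227_1439 and PC-3p-12607_286 resembled the 3p arm of miR156, a family that in Arabidopsis restrains SPL transcription factors. They are shown here with the known 21 nt sequence of the same list, each from its first base, with seeds in capitals.
PC-3p-2227_1439: tGCTCACTcttcttctgtcagc
PC-3p-12607_286: gCTCGCTCttcttctgtcagca
osa-miR156h-3p_2ss9CT14T-: gCTCGCTCttcttctgtcagc
PC-3p-12607_286 held the whole known sequence plus 1 base at its 3′ end. PC-3p-2227_1439 started 1 base before the known sequence and differed from it at 1 of 21 aligned bases. The known sequence had 32 raw reads at 24 h against 48 at 0 h, a fold of 0.614 (0.381 to 0.983), beside 0.457 for PC-3p-2227_1439 and 0.600 for PC-3p-12607_286. All 3 stood below equality. How reads that differ by a base at an end were divided among these names is not stated.

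The hairpins of both candidates also held, on the other side of the stem, the known mdm-miR156a_L+1, with 19 to 20 base pairs to the candidate and 3′ overhangs of 1 or 2 nt. This known 5p sequence had 947170 raw reads at 24 h against 1066002 at 0 h, a fold of 0.820 (0.818 to 0.823), and lay in all 3 hairpins of these candidates. The known mdm-miR156b lay at the same place in these 3 hairpins, with 18 to 19 base pairs to the candidate. It had 440209 raw reads at 24 h against 578015 at 0 h. PC-3p-2227_1439 was listed on scf0513058:367812-368073 (plus strand) and scf0513091:123281-123542 (minus strand), and PC-3p-12607_286 on scf0513058:367281-367542 (plus strand), next to the first. The hairpin on scf0513058 is shown with PC-5p-3454_965, its listed 21 nt partner, and PC-3p-2227_1439 in capitals.
PC-5p-3454_965 and PC-3p-2227_1439: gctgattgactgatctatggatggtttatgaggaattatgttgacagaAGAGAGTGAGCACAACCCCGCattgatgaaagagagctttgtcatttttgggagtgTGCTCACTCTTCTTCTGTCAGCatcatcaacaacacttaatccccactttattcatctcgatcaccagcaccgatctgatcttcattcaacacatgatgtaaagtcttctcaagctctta
PC-5p-3454_965 shared 13 bases with mdm-miR156a_L+1 and lay further towards the loop. It had 392 raw reads at 24 h against 408 at 0 h, a fold of 0.888 (0.770 to 1.02). Against this partner PC-3p-2227_1439 held 35.3% (31.5 to 39.3) of the reads at 24 h and 51.4% (48.0 to 54.9) at 0 h.

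PC-5p-28382_127 was the remaining candidate within 2 mismatches of a known miRNA, vvi-miR3627-5p_L-1_1ss16CT, over 20 aligned bases.
PC-5p-28382_127: tCTGTCGTaggagagatggcgc
vvi-miR3627-5p_L-1_1ss16CT: tGTCGCAGgagagatggcact
The candidate had 38 raw reads at 24 h against 21 at 0 h (fold 1.68, 0.956 to 2.996), and the known sequence had 119 at 24 h against 23 at 0 h (4.81, 3.04 to 7.82). The candidate starts 2 bases earlier than the known sequence. The intervals of their folds did not overlap.

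A looser comparison, added after the sequences were seen, set 3 candidates beside mtr-MIR1510a-p3_1ss5AT, a known 22 nt sequence of the list.
mtr-MIR1510a-p3_1ss5AT: tCTTTCCCattcctcccatccc
PC-3p-1812_1740: tCTTTCCTagtcctgccattcc
PC-3p-105741_34: tTACCGATtcctcccaatccaa
PC-3p-1795_1758: tCCCTATTccacctattcccca
PC-3p-1812_1740 differed from it at 4 of 22 bases, PC-3p-105741_34 at 4 of 20 aligned bases and PC-3p-1795_1758 at 5 of 19. The known sequence had 45 raw reads at 24 h against 111 at 0 h, a fold of 0.373 (0.259 to 0.534). The 3 candidates had folds of 0.766, 2.33 and 0.793 in the order PC-3p-1812_1740, PC-3p-105741_34 and PC-3p-1795_1758, with 1 above equality and 2 below. No family is assigned from these likenesses.

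PC-3p-82_35024 and PC-5p-2222_1443, the candidates ranked 2 and 4 by reads at 0 h, were listed on separate precursors of the same window, scf0513171:1458839-1459100. They were reverse complements of each other over all 22 bases but 1. In the plus strand hairpin of 262 nt PC-5p-2222_1443 took bases 56 to 77 and PC-3p-82_35024 took bases 121 to 142. There were 21 base pairs between them and 43 bases in between. The 2 stretches faced each other over their whole length, without 3′ overhangs of 2 nt. The hairpin is shown with both sequences in capitals, and the stretch marked for PC-5p-2222_1443 differs from its listed sequence at 1 base.
PC-5p-2222_1443 and PC-3p-82_35024: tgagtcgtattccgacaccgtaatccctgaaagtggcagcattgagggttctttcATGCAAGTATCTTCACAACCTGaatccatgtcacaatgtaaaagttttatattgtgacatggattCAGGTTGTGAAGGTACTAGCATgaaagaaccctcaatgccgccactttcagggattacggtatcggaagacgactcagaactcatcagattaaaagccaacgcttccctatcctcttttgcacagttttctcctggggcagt
PC-5p-2222_1443 had 1 mismatch to this genome sequence and was listed on the minus strand too, so its reads cannot be assigned to a strand. PC-3p-82_35024 held 91.9% (91.5 to 92.4) of the reads of these 2 names at 24 h and 92.1% (91.6 to 92.6) at 0 h. The folds were 1.22 and 1.26 in the order PC-3p-82_35024 and PC-5p-2222_1443, with overlapping intervals. The partner listed for PC-5p-2222_1443, PC-3p-466438_8 of 23 nt, had 13 raw reads at 24 h against 8 at 0 h.

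The run TCGTCGGC, or GCCGACGA on the other strand, was present in 13 of the 56 candidates (23.2%, 13.0 to 36.4), against 4 of 168 of 21 nt (2.38%, 0.652 to 5.98), 12 of 121 of 23 nt (9.92%, 5.23 to 16.7), 52 of 862 of 24 nt (6.03%, 4.54 to 7.84) and 0 of 85 known miRNAs. Over all 1310 names the share was 6.49%. The run was chosen after the sequences were seen, several of the names are shifted copies of each other, and the counts are a description. The run is in capitals in the following examples, 4 with it as written and 3 with its reverse complement.
PC-3p-8714_412: cacaaaaaattTCGTCGGCtaa
PC-3p-35078_103: aatattaggttatTCGTCGGCa
PC-3p-27702_130: tTCGTCGGCtaaaggttgtaat
PC-3p-48879_73: atTCGTCGGCtaaaggttgtaa
PC-3p-4861_719: atactttaGCCGACGAcattat
PC-3p-13241_273: tgactataGCCGACGAcattat
PC-3p-122791_29: tgactataGCCGACGAaataat
Of the 13 candidates, 9 held the run as written and 4 its reverse complement, and 10 were named 3p. Only 4 of the 13 began with uridine, against 25 of the other 43.

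The 13 candidates with the run had 1511 raw reads at 24 h against 1261 at 0 h, a fold of 1.11 (1.03 to 1.19). PC-3p-4861_719 (659 raw reads at 24 h against 606 at 0 h) and PC-3p-8714_412 (408 at 24 h against 282 at 0 h) held most of these reads. Of the 13, 8 were above equality, 4 below and 1 equal, 2 were more than 2-fold higher (PC-5p-138174_26 and PC-5p-61232_58) and 1 more than 2-fold lower (PC-3p-122791_29). The candidates with the run did not share a direction.

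By sequence, 29 of the 56 candidates had a relative in the list, meaning an ungapped overlap of at least 18 bases with at most 2 mismatches on either strand, and 27 had none. Candidates of other lengths were among the relatives of 24 (of 21 nt for 18, of 23 nt for 10 and of 24 nt for 16), other candidates of 22 nt among those of 17, and known miRNAs among those of 3. PC-5p-357275_10 had most, with 33 relatives, 28 of them of 24 nt, although it had only 12 raw reads at 24 h against 12 at 0 h. PC-5p-61232_58 had 20 relatives, 14 of them of 24 nt, and PC-3p-35078_103 had 19, 17 of them of 24 nt. Shifts of 1 base without mismatch were seen in the pairs PC-5p-51464_70 and PC-5p-279907_13, PC-3p-27702_130 and PC-3p-48879_73, and PC-3p-222975_16 and PC-3p-243613_15. PC-3p-27702_130 had 74 raw reads at 24 h against 57 at 0 h, and its shifted copy PC-3p-48879_73 had 30 at 24 h against 16 at 0 h. PC-3p-70094_51 had 26 raw reads at 24 h against 22 at 0 h and held the whole of the 21 nt candidate PC-5p-18172_200, which had 354 at 24 h against 247 at 0 h, so here the 22 nt form was the minor one.

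In the degradome, 9 of the 152 target entries belonged to 22 nt candidates, and they came from 2 of the 56 names (3.57%, 0.435 to 12.3). Entries were listed for 26 of 168 candidates of 21 nt (15.5%), 1 of 121 of 23 nt and 5 of 862 of 24 nt. PC-3p-1812_1740 had 8 entries, the most of any name in the table, and PC-5p-289795_13 (tTCCCTCCctagcgagtcagtt with its seed in capitals, 15 raw reads at 24 h against 10 at 0 h) had 1. In all 9 the cleavage site lay opposite base 10 of the miRNA, beside which plant ARGONAUTE proteins cut, as it did in 139 of the 152 entries of the table.

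The entry with the lowest P-value was gene14951-v1.0-hybrid for PC-3p-1812_1740, with an alignment score of 4, a site at transcript position 469 and 4 degradome reads. It was in category 0, where the site is the single highest peak of the transcript, and its P-value, as deposited, was 0.0112. It was the only entry of a 22 nt candidate with a P-value under 0.05. The entry gene13472-v1.0-hybrid had 2 reads at position 203 in category 2, where the peak is below the highest, and a P-value of 0.220. The genes 34124, 34114 and 34116 of the same set shared an alignment score of 3, a site at position 583 and 0.867 reads each. With equal positions and equal fractions of a read, these 3 cannot be counted as independent targets. The other entries, gene35180 and gene34123 with 0.200 reads each, gene03956 with 1 read at position 360 and gene07712 for PC-5p-289795_13 with 0.250 reads at position 4940, were in category 4, a single raw read.

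Only gene03956-v1.0-hybrid was annotated by the authors, as an AT hook motif DNA-binding family protein, and the other 8 targets had no annotation. The same transcript was listed at other positions for mdm-miR171a (site 1193, category 0, 3 reads) and for mdm-MIR171f-p3 (site 1196). None of the other 8 targets was listed for another miRNA. Of the 17 partner sequences of the 22 nt candidates, 1 had an entry, PC-5p-15285_237, the 21 nt arm of PC-3p-2161_1479, with 1 read in category 4. Since the degradome is a single mixture of fruit of both times, it holds no comparison between 24 h and 0 h.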

How the data were processed

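Small RNAs were sequenced in 1 library at 24 h and 1 at 0 h, and a degradome in 1 library of both. Per mature miRNA, the authors deposited raw counts made with ACGT101-miR 4.2 after removal of adaptors, mRNA, Rfam and repeat sequences, against miRBase 19 and the Fragaria vesca genome 1.0. The normalized score of each miRNA, as deposited, is a whole number close to raw reads times 1 factor per library (within 1 read for 1305 names at 24 h and 1307 at 0 h), with no formula stated in the sources read. For degradome targets the authors deposited the alignment score, category and p-value that CleaveLand 3.0 and ACGT301-DGE 1.0 gave, with no adjustment of the p-value mentioned. The deposited signal at a cleavage site counts degradome reads and can be a fraction.

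The table has 1431 entries for 1310 names, and each name was counted once. The members, lists and rules were chosen with earlier results of these data known. Candidates that reached 10 raw reads in 1 of the libraries or both were compared, with a log2 fold above 1 or below -1 as the threshold and a floor of 3 raw reads for a 0. Named candidates are those that reached 100 raw reads in a library or passed the threshold, and those with a 21 nt partner, with a degradome entry or within 2 mismatches of a known miRNA over at least 18 bases. PC-5p-242686_15, PC-5p-977833_4, PC-3p-212275_17, PC-3p-67479_53, PC-5p-357275_10, the likenesses to mtr-MIR1510a and the members named for partners of other lengths, relatives, shifted copies, the run TCGTCGGC or their side of the stem were picked with their values already seen. Hairpin sequences and positions come from the study's supplementary lists, of which 715 entries were at hand for 1334, and were folded with RNAfold 2.7.2. A pair of arms was called paired with at least 10 base pairs between them. Intervals at the 95% level are conditional binomial for folds and Clopper-Pearson for shares, computed with Python 3.11.15, numpy 2.4.6, pandas 2.3.3 and scipy 1.17.1 and tested on simulated data. Figures were drawn with matplotlib 3.10.9. Alternative scalings used R 4.3.3 with edgeR 4.0.16 and DESeq2 1.42.0. A table of cultivated strawberry genes was left aside, because it shares no identifiers with the Fragaria vesca genes.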

Additional observations from a re-analysis of the deposited data

How the results depend on the processing

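With 1 library per storage time, no replicate could be left out. No paired analysis was possible because there is 1 library per storage time and no test. The number of candidates more than 2-fold higher at 24 h was 6 and that of lower ones 2. Under the other scalings these were 6 or 7 and 2. With a minimum of 50 raw reads in either library they were 0 higher and 1 lower, with at least 10 raw reads in both libraries 2 higher and 1 lower, and with the counting interval wholly beyond 2-fold 0 higher and 0 lower. With a pseudocount of 1 there were 4 higher. The fold of the summed reads, 1.36, was 1.47 without scaling, 1.48 scaled by the total of listed miRNAs, 1.15 without PC-3p-132_23619 and 1.42 with the 2 candidates put back. The largest shift that a scaling gave to every log2 fold was 0.12. The 9 degradome entries became 5 in categories 0 to 2 and 1 with a P-value under 0.05. The uridine share was 51.8 to 60.0% of names, and 61.8% when weighted by raw reads. The number with a 21 nt partner stayed at 12 with the 2 candidates put back, and 17 had a partner of any length. The run TCGTCGGC was in 13, and in 14 with the run shortened or 1 mismatch allowed. The values of the uridine share, the partners and the run were within the limits set. The counts under the stricter filters on reads or interval, the other summed folds given here and the reduced degradome counts were outside them. Of 189 values of the 27 named candidates under alternatives, 183 lay within the counting interval, 6 outside and 0 on the other side of equality. Some calls changed, as PC-3p-155215_23 and PC-5p-397294_9 had folds of exactly 2 with a pseudocount of 1 and no longer passed the threshold. Counts under 50 raw reads limit the folds of most candidates.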
